A study of Homo sapiens with 6 samples.

Results

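The E2F transcription factors and the retinoblastoma (pocket) proteins form the switch that opens and closes S phase. The genes described here were 10 members of that switch, taken by symbol from the 16809 genes of the deposited table: the activator genes E2F1, E2F2 and E2F3, the repressor genes E2F4 and E2F5, the atypical repressor genes E2F7 and E2F8, and the pocket protein genes RB1, RBL1 and RBL2. Their Entrez identifiers in the table were 1869 for E2F1, 1870 for E2F2, 1871 for E2F3, 1874 for E2F4, 1875 for E2F5, 144455 for E2F7, 79733 for E2F8, 5925 for RB1, 5933 for RBL1 and 5934 for RBL2. All 10 were listed, and all 10 passed the minimum mean of 1 TPM that left 11927 genes for testing.

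The cells were CAL-27, an established human line from a squamous carcinoma of the tongue, sequenced as 3 ES-Cu and 3 control libraries. The ES-Cu group had received the copper ionophore elesclomol together with copper at equal parts for 24 h, and the control group is labelled as normal control, with no vehicle named. All 6 libraries came from the same unmodified line, and the sources used here give neither the dose nor whether the libraries were separate cultures. The p-values therefore reflect how far these libraries spread, and that spread may be technical. Per the submitters' design text, the comparison addressed how the transcriptome changes in cuproptosis, a copper-dependent cell death; whether the cells died was not analysed here.

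Values were TPM, a length-corrected share of transcripts that adds up to a fixed total per library, so depth and counting error were unknown. Across tested genes, log2 values correlated at r = 0.994 to 0.995 between libraries of a group and at 0.937 to 0.939 between groups, with genes that are no independent replicates. The median log2 fold change (ES-Cu minus control) over tested genes was -0.50 for TPM as deposited, 0.00 after median-of-ratios scaling and -0.07 after quantile normalization. A gene is therefore said to rise or fall only where limma called it at an adjusted p under 0.05, in the same direction, in each of the 3 scalings. Of the squamous epithelial markers, 10 of 10 were tested, with a summed level of 3757 to 3844 TPM in ES-Cu and 3022 to 3167 TPM in control libraries. Of these markers, 3 rose and 3 fell, or 30.0% each, against 13.5% and 31.2% of all tested genes. LAMB3 (1.07), a laminin chain of the basement membrane, SFN (0.95) and the keratin gene KRT6A (0.43) rose, while TP63 (-1.78), the squamous lineage factor, CDH1 (-1.27), E-cadherin, and the integrin gene ITGB4 (-0.77) fell; SFN, KRT6A and ITGB4 were named after their values were seen. Fibroblast markers summed to 4.72 to 5.26 TPM in ES-Cu and 11.4 to 11.6 TPM in control libraries, with LUM, COL3A1 and COL1A2 under the minimum of 1 TPM and COL1A1 lower in ES-Cu (-1.02). The leukocyte and endothelial markers summed to 49.9 to 55.7 TPM in ES-Cu and 66.9 to 73.2 TPM in control libraries, most of it CD68, while PTPRC, PECAM1 and VWF were under 1 TPM and CDH5 fell (-1.73). No defining marker was at 0 in all libraries, and the part of these levels in the results below was not tested.

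Activator E2Fs bind DNA with a DP partner and switch on genes for DNA replication and nucleotide synthesis. Hypophosphorylated RB1 masks their activation domain until cyclin D with CDK4 or CDK6, and then cyclin E with CDK2, phosphorylate it. RBL1 (p107) and RBL2 (p130) bind mainly E2F4 and E2F5 and, with the MuvB core, form the DREAM complex that keeps cell cycle genes silent in resting cells. E2F7 and E2F8 need neither a DP partner nor a pocket protein, and repress E2F targets late in S phase. Protein levels and phosphorylation were not measured, so all results below are transcript levels.

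Within the activators and within the atypical genes, members moved in opposite directions, whereas neither of the repressor members E2F4 and E2F5 and no pocket protein member rose. E2F3 and E2F7 rose in ES-Cu, to 1.54 and 1.52 times their control means, whereas E2F2, E2F5, E2F8 and RBL2 fell to 0.251, 0.266, 0.292 and 0.384 times theirs. E2F1, E2F4, RB1 and RBL1 were lower as deposited but did not keep a call of one sign under the other scalings. E2F2 averaged under 1 TPM in ES-Cu and passed the minimum only through the control group. On deposited TPM, 2 members were called higher and 8 lower, 10 in all, against 13.6%, 70.0% and 83.7% of all tested genes, so the number of lower calls was near the background. With one sign in all 3 scalings, 2 members were higher and 4 lower, 6 in all, against 13.5%, 31.2% and 44.7% of tested genes, so these shares too were near the background. The 3 ES-Cu values and the 3 control values did not overlap for any of the 10 members, which also held for 84.3% of tested genes. In bulk RNA, fewer cells in a cell cycle phase and less RNA per cell cannot be told apart.

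**Figure D1:**
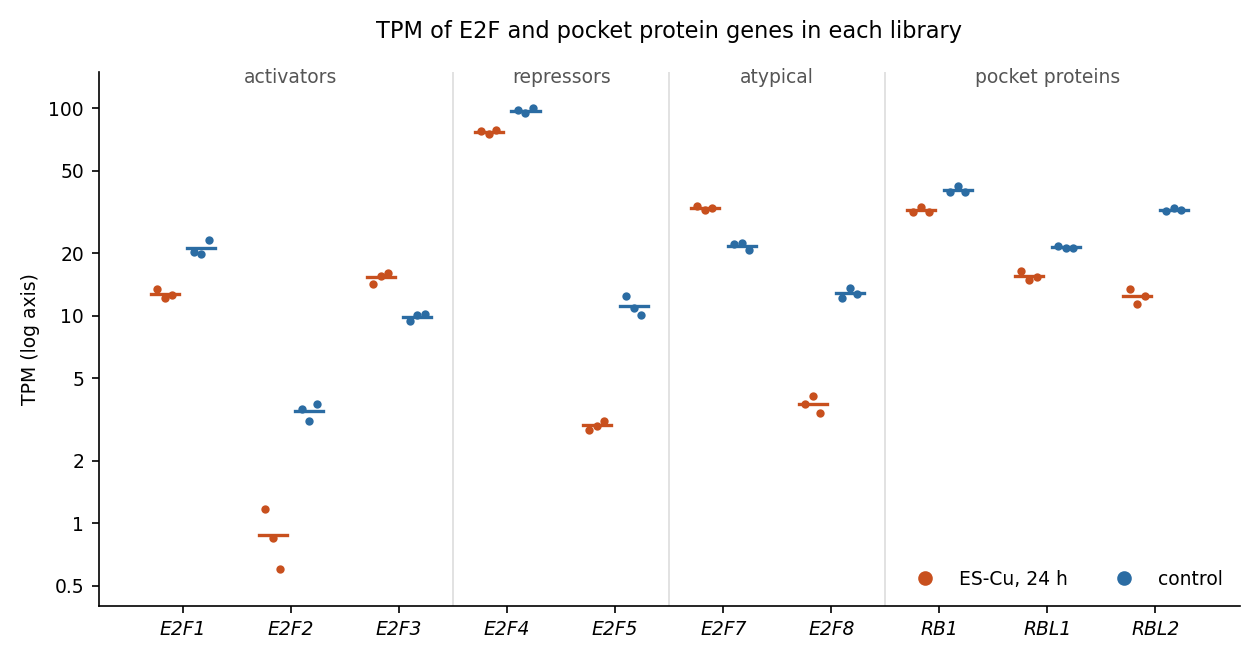
TPM of each of the 10 genes (log axis) in every library, with 3 ES-Cu points left of 3 control points and bars at the group means. E2F3 and E2F7 lie higher in ES-Cu, the other 8 lie lower, and no gene's groups overlap.

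Promoter windows were read because a family gene can itself be an E2F target, E2F1 and RBL1 being textbook cases. RefSeq promoter windows on GRCh38.p14, running from 250 bases before to 50 after an annotated start, were found for 8 of the 10 members; E2F5 and E2F8 had none. The RB1 window starts 172724 bases inside the GENCODE gene and was not read, which left 9 windows of 7 genes. They were searched on both strands for the E2F letters TTTCCCGC, TTTGGCGC, TTTCGCGC and TTTGCCGC, for the cell cycle homology region (CHR) letters TTTGAA and TTCGAA, and for CCAAT, the core of the NF-Y site. At least one of the 4 E2F words stood in 3.31% of the 35116 windows in the table, CHR letters in 16.4% and CCAAT in 34.6%. A match describes letters and is not a measured binding site.

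Among the members, 4 genes held E2F letters, all within the last bases before the start. The 80 bases up to the start are shown for them on the gene's strand, with E2F letters of either strand in capitals, since E2F1 and RBL1 each hold a pair of matches and E2F2 and E2F3, which moved in opposite directions, hold one each. They lie at chr20:33686386-33686465 (minus strand) for E2F1, chr20:37095998-37096077 (minus strand) for RBL1, chr1:23531234-23531313 (minus strand) for E2F2 and chr6:20401799-20401878 (plus strand) for the upstream start of E2F3.
E2F1: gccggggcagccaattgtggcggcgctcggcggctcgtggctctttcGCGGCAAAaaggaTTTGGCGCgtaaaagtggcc
RBL1: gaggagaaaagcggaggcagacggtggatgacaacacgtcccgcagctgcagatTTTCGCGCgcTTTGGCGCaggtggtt
E2F2: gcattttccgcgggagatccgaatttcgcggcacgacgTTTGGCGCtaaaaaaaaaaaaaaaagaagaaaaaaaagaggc
E2F3: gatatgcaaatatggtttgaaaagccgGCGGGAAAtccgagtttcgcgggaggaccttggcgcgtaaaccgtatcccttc

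E2F1 and RBL1 share the word TTTGGCGC, beginning at positions -20 and -16, and E2F2 has it at -42; E2F3 has TTTCCCGC on the opposite strand at -53 and CHR letters at -65. The second annotated start of E2F3, the window of E2F4 and both windows of RBL2 held no E2F letters. The starts of the RBL2 windows lie 494 and 1642 bases inside the GENCODE gene, so neither window covers the gene's first base. The first of these RBL2 windows held CHR letters at position 25, after its start. E2F7, the other gene that rose, held no E2F letters either but 4 CCAAT words, all on the opposite strand, at -229, -167, -86 and -54. E2F3 also had 4 CCAAT words at its upstream start and E2F1 had 3. The stretch of E2F7 at chr12:77065610-77065809 (minus strand) is given with these words in capitals as ATTGG. No matches of different words overlapped in any member window.
E2F7: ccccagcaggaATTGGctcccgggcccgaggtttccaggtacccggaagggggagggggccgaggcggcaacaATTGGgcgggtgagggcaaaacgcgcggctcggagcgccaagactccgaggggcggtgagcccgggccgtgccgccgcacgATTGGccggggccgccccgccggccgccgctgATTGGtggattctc

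**Figure D2:**
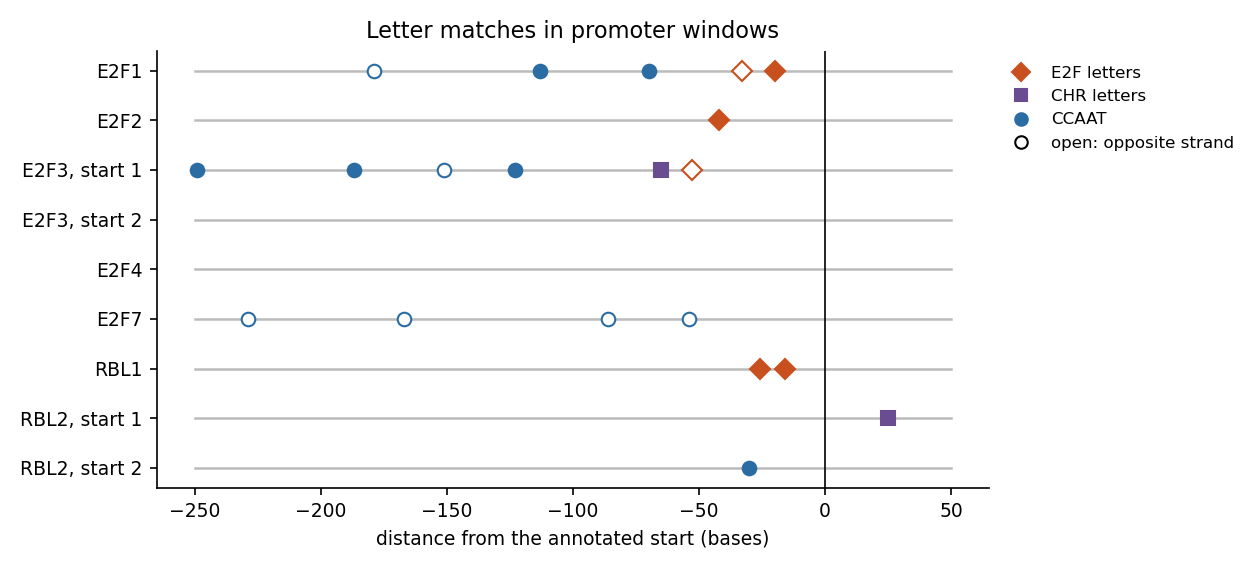
Positions of E2F letters (diamonds), CHR letters (squares) and CCAAT (circles) in 9 promoter windows, in bases from the annotated start; open symbols lie on the opposite strand. E2F letters lie close before the start of E2F1, E2F2, RBL1 and the upstream start of E2F3, and E2F7 has 4 CCAAT words.

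Among the activators, E2F3 was the only one that rose. E2F3, which makes a long and a short protein from separate starts and promotes S phase entry, was at 14.19, 15.49 and 16.12 TPM in ES-Cu libraries and at 9.38, 10.12 and 10.20 TPM in control libraries. Every ES-Cu value lay above every control value. Its log2 fold change on the log2(TPM + 1) scale was 0.58 (SE 0.078, adjusted p = 3.24e-05, limma), and 1.09 after median-of-ratios scaling. RefSeq lists the pseudogene copies E2F3P1 and E2F3P2, and the sources used here do not say how reads shared with them were assigned. The gene total cannot say which start the added transcripts used.

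E2F1, the activator best known for driving both S phase and cell death genes, had 13.45, 12.19 and 12.58 TPM in ES-Cu libraries, against 20.27, 19.82 and 23.11 TPM in control libraries. It was lower in all 3 ES-Cu libraries as deposited (log2 fold change -0.68, SE 0.078, adjusted p = 8.33e-06, limma). After median-of-ratios scaling it was not called (-0.16, adjusted p = 0.0732, limma), and after quantile normalization it was called lower (-0.21, adjusted p = 0.0295, limma). Its position at percentile 37.5 of all log2 fold changes was not far from the median gene.

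E2F2, the third activator, was the scarcest member. It had 1.17, 0.85 and 0.60 TPM in ES-Cu libraries and 3.56, 3.11 and 3.77 TPM in control libraries. The groups did not overlap, but the ES-Cu mean of 0.873 TPM lay under the minimum for testing, which E2F2 passed only through its control mean of 3.48 TPM. At such levels the added 1 TPM understates a fold change. The log2 fold change was -1.27 (SE 0.14, adjusted p = 7.50e-06, limma), and -1.55 and -1.92 with pseudocounts of 0.5 and 0.1. It was called lower in all 3 scalings and in the fit with no filter, and was not tested at a minimum of 5 TPM.

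As a class, the activators summed to 28.9 ± 0.390 TPM in ES-Cu and 34.4 ± 2.28 TPM in control (mean ± SD, n = 3 per group, as throughout), and the makeup of that sum differed between the groups. E2F3 made up 52.9% ± 3.14 of the activator TPM in ES-Cu and 28.8% ± 1.63 in control. E2F1 made up 44.1% ± 2.23 in ES-Cu and 61.1% ± 1.18 in control, and E2F2 3.03% ± 1.01 in ES-Cu and 10.1% ± 0.658 in control. In ES-Cu libraries E2F3 stood at 1.06, 1.27 and 1.28 times E2F1, whereas in control libraries it stood at 0.463, 0.511 and 0.441 times E2F1. Ratios and shares within a library are the same for TPM as deposited and after median-of-ratios scaling, which multiplies a library by 1 factor, whereas quantile normalization changes them; no test was made of them, as the members were chosen with results known.

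The repressor E2Fs differed in level and in change. E2F4, the most abundant E2F and a DREAM subunit, had 77.34, 75.03 and 78.02 TPM in ES-Cu libraries and 97.44, 95.06 and 99.68 TPM in control libraries. All ES-Cu values were lower, yet by less than the median gene, and the direction depended on the scaling. The log2 fold change was -0.34 as deposited (SE 0.043, adjusted p = 2.07e-05), 0.21 after median-of-ratios scaling (adjusted p = 7.91e-04) and -0.05 after quantile normalization (adjusted p = 0.290, limma). E2F4 has a listed pseudogene copy, E2F4P1, with the same limit on shared reads.

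E2F5, the other repressor and likewise a partner of RBL1 and RBL2, had the largest log2 fold change of the 10 members on the log2(TPM + 1) scale; with a pseudocount of 0.1, E2F2 (-1.92) passed E2F5 (-1.87). It was at 2.82, 2.95 and 3.10 TPM in ES-Cu libraries, against 12.48, 10.83 and 10.09 TPM in control libraries. The ES-Cu values were tightly grouped and far below the lowest control value. It fell in all 3 scalings, by 1.61 on the log2 scale as deposited (SE 0.10, adjusted p = 7.62e-08), by 1.14 after median-of-ratios scaling and by 1.01 after quantile normalization (limma). E2F5 made up 3.71% ± 0.165 of the repressor TPM in ES-Cu and 10.3% ± 1.08 in control. An exon of RBIS, on the opposite strand, shares up to 556 bases with exons of E2F5 in GENCODE v29, and whether reads were counted by strand is not given. RBIS was at 41.7 ± 0.478 TPM in ES-Cu and 70.5 ± 7.60 TPM in control; its part in the E2F5 result was not tested.

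The genes nearest to E2F5 in level and pattern, by Euclidean distance of log2(TPM + 1) over the 6 libraries, were TMEM200B (0.297), TMEM42 (0.302) and ATG10 (0.303). They were at 2.94 ± 0.409 TPM (TMEM200B), 3.19 ± 0.569 TPM (TMEM42) and 3.33 ± 0.251 TPM (ATG10) in ES-Cu, against control means of 11.4, 10.9 and 11.4 TPM in the same order.

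The atypical E2Fs moved apart. E2F7 had 33.72, 32.15 and 32.92 TPM in ES-Cu libraries and 22.06, 22.30 and 20.72 TPM in control libraries. Every ES-Cu value lay above every control value. E2F7 rose by 0.58 on the log2 scale as deposited (SE 0.058, adjusted p = 2.85e-06), by 1.12 after median-of-ratios scaling and by 0.99 after quantile normalization (limma). E2F8, which in mice can stand in for E2F7, went the other way, with 3.74, 4.12 and 3.40 TPM in ES-Cu libraries against 12.14, 13.61 and 12.75 TPM in control libraries. Its groups were far apart. It fell in all 3 scalings, with a log2 fold change of -1.54 as deposited (SE 0.093, adjusted p = 6.09e-08) and -1.06 after median-of-ratios scaling (limma).

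The ratio of E2F7 to E2F8 was 9.02, 7.80 and 9.68 in ES-Cu libraries and 1.82, 1.64 and 1.63 in control libraries. E2F8 held 10.2% ± 1.02 of the atypical TPM in ES-Cu and 37.2% ± 1.45 in control, while the sum of both genes was 36.7 ± 0.673 TPM in ES-Cu and 34.5 ± 1.25 TPM in control. Class shares were taken of the summed TPM of the E2F members. That sum leaves out the repressor E2F6, which was at 21.0 ± 1.17 TPM in ES-Cu and 11.7 ± 0.873 TPM in control. The atypical genes made up 25.2% ± 0.437 of the sum in ES-Cu and 19.5% ± 1.00 in control. The repressors E2F4 and E2F5 made up 54.9% ± 0.354 in ES-Cu and 61.1% ± 0.749 in control, and the activators 19.9% ± 0.173 in ES-Cu and 19.4% ± 1.01 in control. The activator share overlapped between the groups, and the atypical and repressor shares did not, with no background computed for shares.

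**Figure D3:**
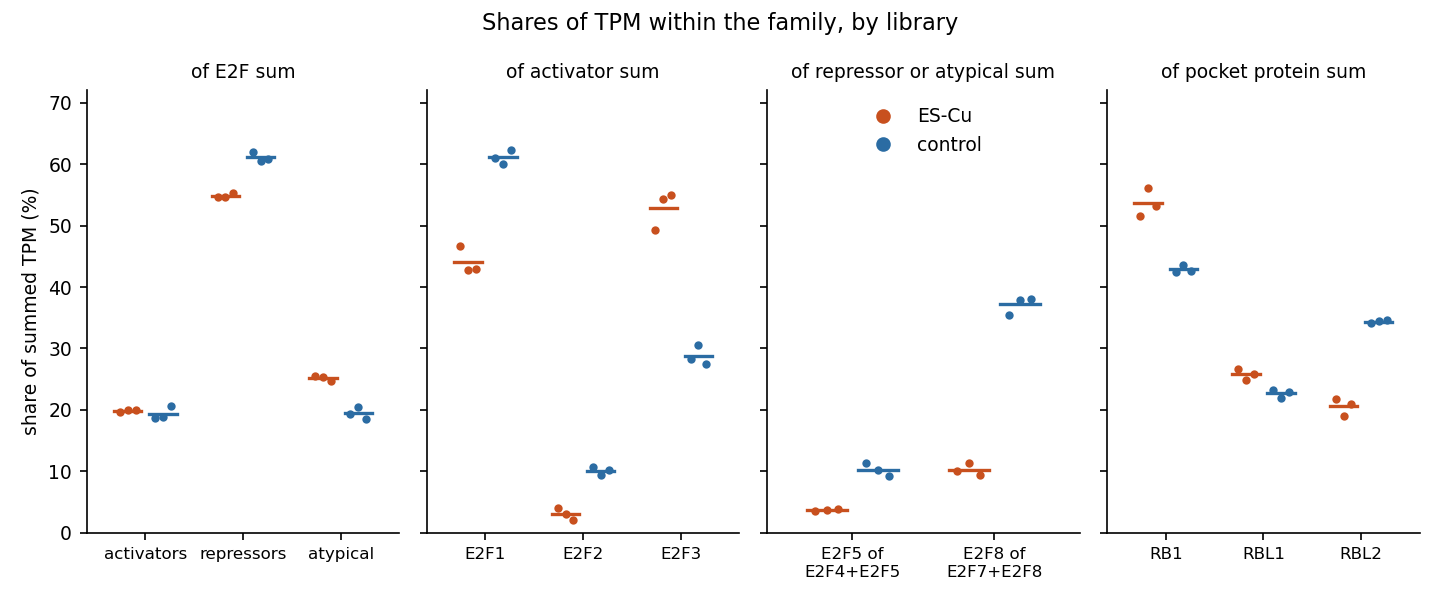
Share of summed TPM (percent) by library, with ES-Cu left of control and bars at the means. Panels give the E2F classes, the activators, E2F5 and E2F8 within their pairs, and the pocket proteins; E2F3 takes 52.9% of activator TPM in ES-Cu and 28.8% in control, and RBL2 takes 20.6% of pocket protein TPM in ES-Cu and 34.4% in control.

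Of the pocket proteins, RBL2 fell in all 3 scalings. RBL2, the pocket protein of resting cells, had 13.43, 11.40 and 12.44 TPM in ES-Cu libraries and 31.77, 33.16 and 32.12 TPM in control libraries. The highest ES-Cu value was below every control value by a wide margin. Its log2 fold change was -1.32 as deposited (SE 0.071, adjusted p = 2.78e-08), -0.79 after median-of-ratios scaling and -0.87 after quantile normalization (limma). AKTIP, a neighbour on the opposite strand whose exon shares up to 610 bases with exons of RBL2, was at 8.72 ± 0.940 TPM in ES-Cu and 15.6 ± 1.21 TPM in control; its part in the RBL2 result was not tested. Unnamed antisense or unclassified transcripts also share exonic bases with RBL2 (721), RBL1 (211), E2F5 (133) and E2F8 (7).

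RB1, the tumour suppressor that restrains the activators, had 31.73, 33.54 and 31.57 TPM in ES-Cu libraries and 39.49, 42.08 and 39.53 TPM in control libraries. Its values were lower in ES-Cu as deposited, but its direction turned with the scaling. The log2 fold change was -0.31 as deposited (SE 0.055, adjusted p = 2.47e-04), 0.23 after median-of-ratios scaling (adjusted p = 0.00429) and 0.06, not called, after quantile normalization (adjusted p = 0.370, limma). RBL1, which is itself made mainly in S phase, had 16.40, 14.83 and 15.34 TPM in ES-Cu libraries and 21.61, 21.16 and 21.28 TPM in control libraries. It was called lower as deposited (-0.44, SE 0.065, adjusted p = 7.15e-05) and not after median-of-ratios scaling (0.09, adjusted p = 0.173) or quantile normalization (0.02, adjusted p = 0.821, limma).

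Pocket protein TPM summed to 60.2 ± 1.17 in ES-Cu and 94.1 ± 2.02 in control, and RB1 held a larger part of it in ES-Cu. RB1 made up 53.6% ± 2.32 of it in ES-Cu and 42.9% ± 0.648 in control, RBL1 25.8% ± 0.917 in ES-Cu and 22.7% ± 0.680 in control, and RBL2 20.6% ± 1.40 in ES-Cu and 34.4% ± 0.177 in control. RBL1 was 1.22, 1.30 and 1.23 times as abundant as RBL2 in ES-Cu libraries, whereas in control libraries it was at 0.680, 0.638 and 0.663 times RBL2. None of the 3 shares overlapped between the groups. Single-gene TPM values did not overlap for 84.3% of tested genes, and no such background was computed for shares.

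**Figure D4:**
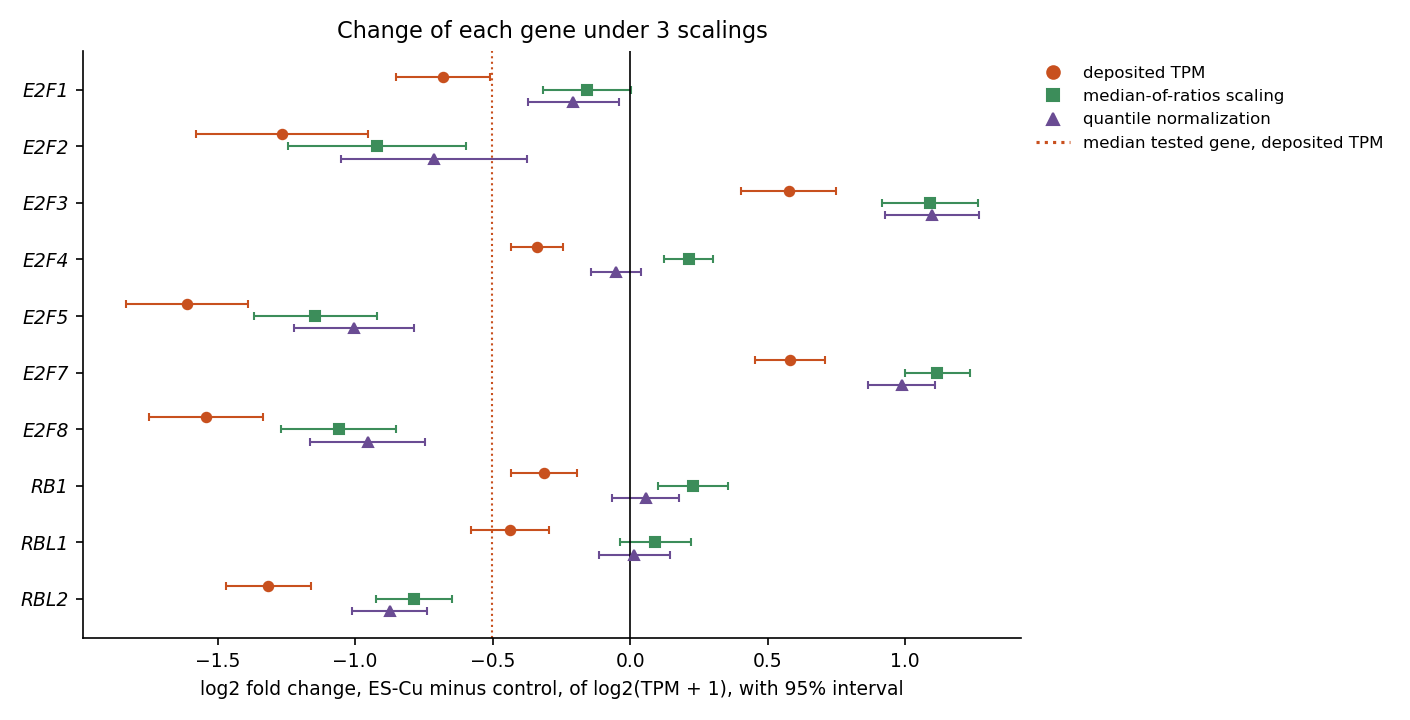
The log2 fold change of each gene, ES-Cu minus control, with its 95% interval, on deposited TPM (circles), after median-of-ratios scaling (squares) and after quantile normalization (triangles); the dotted line marks the median tested gene at -0.50. E2F3 and E2F7 stay right of 0 and E2F2, E2F5, E2F8 and RBL2 left of 0 in all 3, while E2F4, RB1 and RBL1 lie on both sides of 0 and E2F1 stays left of 0 with an interval that reaches it after median-of-ratios scaling.

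The order of levels changed with treatment. In ES-Cu libraries E2F4 came first, followed by E2F7 and RB1, RBL1 and E2F3, E2F1 and RBL2, then E2F8, E2F5 and E2F2. In that order the ranges of E2F7 and RB1, of RBL1 and E2F3, and of E2F1 and RBL2 overlapped, and all other neighbours were separated. In control libraries E2F4 led as well, ahead of RB1, RBL2, E2F7, RBL1, E2F1, E2F8, E2F5, E2F3 and E2F2. There the ranges of E2F7 and RBL1, RBL1 and E2F1, E2F8 and E2F5, and E2F5 and E2F3 overlapped. E2F3 thus stood at rank 5 in ES-Cu and rank 9 in control, and RBL2 at rank 7 in ES-Cu and rank 3 in control.

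The DP partners of E2F factors, and E2F6, a further E2F gene, were read outside the member set. Of 3 tested DP partners and E2F6, 1 rose and 1 fell in all 3 scalings, or 33.3% each, against 13.5% and 31.2% of tested genes. E2F6, a repressor that works with Polycomb proteins and without pocket proteins, rose to 21.0 ± 1.17 TPM in ES-Cu, against 11.7 ± 0.873 TPM in control (log2 fold change 0.80, adjusted p = 2.12e-06, limma). TFDP2, a DP partner, fell to 17.5 ± 0.905 TPM in ES-Cu, against 34.1 ± 1.33 TPM in control (-0.92, adjusted p = 1.48e-07, limma). The main DP partner gene TFDP1, named after its values were seen, was at 128 ± 4.61 TPM in ES-Cu and 164 ± 4.33 TPM in control; its log2 fold change of -0.36 turned to 0.20 after median-of-ratios scaling.

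Upstream of the pocket proteins, the list of 9 G1 cyclin and kinase genes had 2 that rose and 3 that fell. These were 22.2% and 33.3%, against 13.5% and 31.2% of all tested genes. As deposited, 2 were called higher and 6 lower, against 13.6% and 70.0% of all tested genes. The list median was -0.32, against -0.50 for all tested genes. CCNE1, which encodes cyclin E1, rose to 24.5 ± 1.40 TPM in ES-Cu, against 14.5 ± 1.38 TPM in control (0.72, adjusted p = 6.61e-06, limma), and CDC25A, the phosphatase that activates CDK2, had a log2 fold change of 0.38. The kinase genes CDK2 (-0.67) and CDK4 (-0.67) fell, as did the scarce CCND2 (-1.03). After median-of-ratios scaling CDK2 was at -0.12, CDK4 at -0.11 and CCND2 at -0.68. CCND2 averaged 0.920 TPM in ES-Cu and passed the minimum for testing only through its control mean of 2.91 TPM. CDC25A and CCND2 were named after their values were seen.

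Of 7 CDK inhibitor genes, 2 rose, or 28.6%, against 13.5% of tested genes, and 3 fell, or 42.9%, against 31.2%. As deposited, 2 were called higher and 5 lower, the lower calls near the 70.0% of all tested genes. CDKN1A, which encodes p21, rose to 104 ± 2.63 TPM in ES-Cu, against 48.0 ± 1.00 TPM in control (1.09, adjusted p = 4.60e-09, limma). CDKN2C, the CDK4 and CDK6 inhibitor p18, fell to 8.75 ± 0.321 TPM in ES-Cu, against 46.8 ± 3.11 TPM in control (-2.29, adjusted p = 4.70e-10, limma), and CDKN1B, which encodes p27, fell to 7.84 ± 0.186 TPM in ES-Cu, against 26.1 ± 1.77 TPM in control (-1.62). The list median of -0.66 lay near that of all tested genes. CDKN1C (1.21) and CDKN2D (-0.91), named after their values were seen, were the remaining genes called with one sign.

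Among genes for turnover of E2F proteins, SKP2 (-1.28) and CCNF (-1.23), which encode ubiquitin ligase subunits, fell, and FZR1 (-0.27), an activator of the anaphase-promoting complex, was called lower as deposited and not with one sign; FZR1 was named after its values were seen. SKP2 was at 17.2 ± 2.35 TPM in ES-Cu and 43.2 ± 2.90 TPM in control. Of 9 genes of the MuvB core and its partners, 3 rose and 3 fell, or 33.3% each, against 13.5% and 31.2% of all tested genes. As deposited, 3 were called higher and 5 lower, against 13.6% and 70.0% of all tested genes (list median -0.43). The partner genes FOXM1 (-0.81), MYBL2 (-0.68) and MYBL1 (-0.70), which switch on late cell cycle genes, fell. After median-of-ratios scaling FOXM1 was at -0.26, MYBL2 at -0.13 and MYBL1 at -0.18. DYRK1A, the kinase that triggers DREAM assembly, rose to 27.4 ± 1.32 TPM in ES-Cu, against 15.9 ± 1.37 TPM in control (0.75, adjusted p = 2.61e-06, limma), and the MuvB subunit genes LIN37 (0.23) and LIN54 (0.27) rose; MYBL2, LIN37 and LIN54 were named after their values were seen. Of 12 RB co-repressor genes, 1 rose and 4 fell, or 8.33% and 33.3%, against the same 13.5% and 31.2% of all tested genes. As deposited, 1 was called higher and 8 lower, against 13.6% and 70.0% (list median -0.51). Among those that fell were the chromatin remodeller genes SMARCA2 (-1.20) and SMARCA4 (-0.81) and the histone methyltransferase gene SUV39H1 (-0.89). The count of 1 called higher as deposited became 3 without ES-Cu replicate 3 and 2 without control replicate 2. The one that rose, named after its values were seen, was ARID4B (0.78), which encodes an RB-binding subunit of a histone deacetylase complex.

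Targets of the family differed by cell cycle phase. Of 60 target genes of the G1/S transition, 4 rose and 26 fell, with 4 called higher and 53 lower as deposited and a median of -0.67. Their share that fell, 43.3%, compares with 31.2% of all tested genes, and their share that rose, 6.67%, with 13.5%. As deposited, 13.6% of all tested genes were called higher and 70.0% lower. UNG (-1.43), a base excision repair enzyme, MCM6 (-1.26), a helicase subunit, and POLE2 (-1.22), a polymerase subunit, fell most among genes of at least 5 TPM. MCM6 was at 44.3 ± 1.05 TPM in ES-Cu and 107 ± 3.63 TPM in control. The 4 that rose, named after their values were seen, were the origin licensing gene CDC6 (0.46), the replication factor gene GINS3 (0.42), the ubiquitin ligase adaptor gene DTL (0.24) and the deubiquitinase gene USP1 (0.23).

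Of 40 DREAM targets of G2 and M phase, 37 fell, which is 92.5%, and 0 rose, against 31.2% and 13.5% of all tested genes. As deposited, 39 were called lower and 0 higher (limma), against 70.0% and 13.6% of all tested genes, with a list median of -1.13. KIF20A, a kinesin of cytokinesis, fell to 10.9 ± 0.690 TPM in ES-Cu, against 72.7 ± 0.357 TPM in control (-2.63, adjusted p = 4.13e-11, limma), and PLK1, a mitotic kinase, fell to 32.4 ± 0.361 TPM in ES-Cu, against 144 ± 1.28 TPM in control (-2.12). CENPA, the centromeric histone H3, fell to 9.38 ± 0.833 TPM in ES-Cu, against 35.3 ± 2.54 TPM in control (-1.81). The exceptions, named after their values were seen, were TTK (-0.49), INCENP (-0.60) and CKS2 (0.03, adjusted p = 0.499, limma); CKS2 was called higher after median-of-ratios scaling. Median-of-ratios scaling moved the list medians to -0.12 for G1/S and -0.58 for G2/M targets, with the median gene at 0.00. Both lists were drawn up with earlier results of these data known, so their direction is not independent evidence.

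In the promoter table, 28 of 51 matched G1/S targets held at least one of the 4 E2F words, against 3.99% of all genes in the table, and 28 of 35 matched G2/M targets held CHR letters, against 19.5% of all genes. Both lists were made up of E2F or DREAM target genes, so these shares are not independent evidence. Of the members read, only E2F3 held letters of both kinds in the same window.

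Pro-apoptotic targets of E2F1 were mixed: of 10 tested, 3 rose and 3 fell, or 30.0% each, against 13.5% and 31.2% of all tested genes. As deposited, 3 were called higher and 6 lower, against 13.6% and 70.0% of all tested genes (list median -0.51). PMAIP1, which encodes the BH3-only protein NOXA, rose to 49.9 ± 1.47 TPM in ES-Cu, against 20.5 ± 0.562 TPM in control (1.24, adjusted p = 6.85e-09, limma). TP73, a p53 relative and classical E2F1 target, fell to 0.830 ± 0.108 TPM in ES-Cu, against 5.41 ± 0.0503 TPM in control (-1.81), and BCL2L11, which encodes BIM, fell as well (-1.25). TP73 averaged under 1 TPM in ES-Cu, and it met the minimum for testing and the 5 TPM for naming only through the control group. DIABLO (0.41), which encodes an antagonist of apoptosis inhibitors, rose as well, and APAF1 (-0.93), the apoptosome scaffold, fell; both were named after their values were seen.

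**Figure D5:**
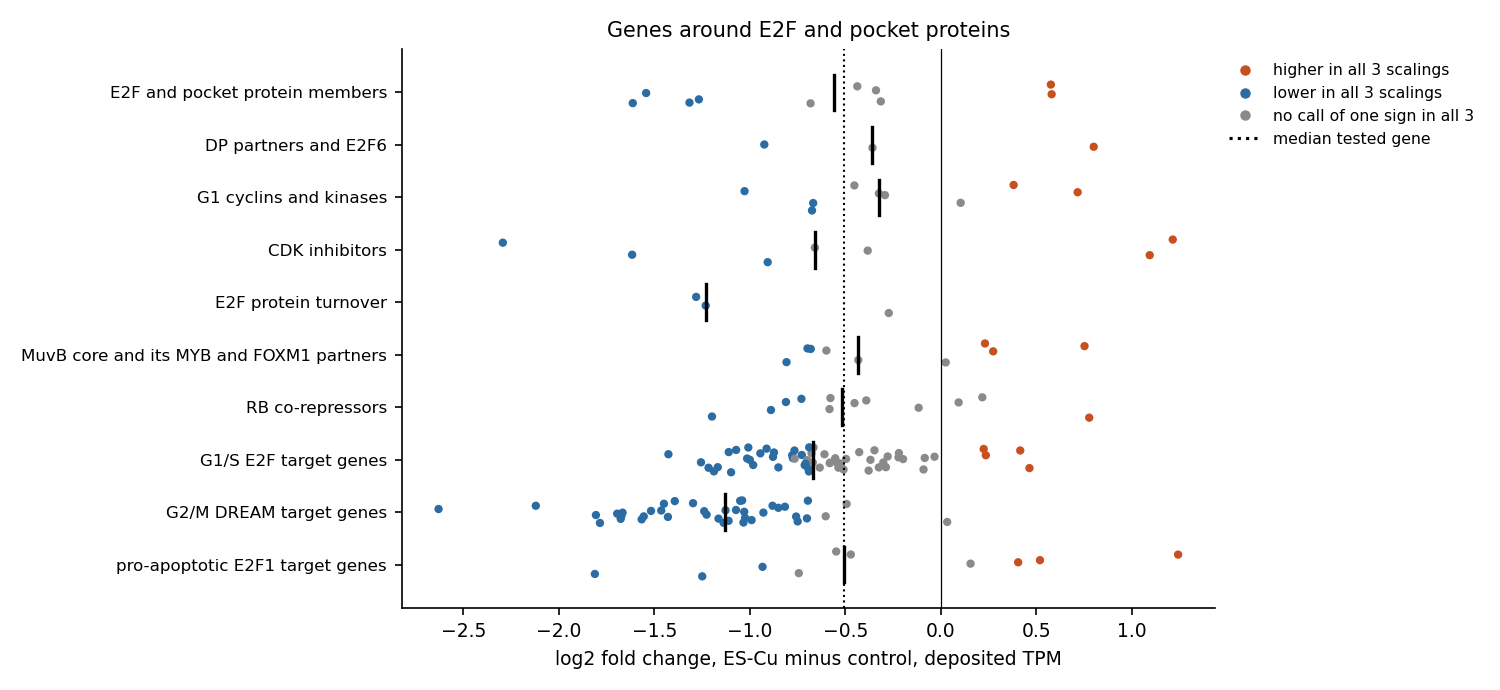
Log2 fold change of each tested gene, ES-Cu minus control, on deposited TPM, for the 10 members and 9 gene lists around them; black bars are list medians and the dotted line is the median tested gene at -0.50. Orange and blue points were called higher or lower in all 3 scalings and grey points were not. Blue points are 37 of 40 G2/M targets and 26 of 60 G1/S targets, where 31.2% of all tested genes were called lower in this way.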

How the data were processed

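Total RNA of 6 CAL-27 libraries was sequenced as single-end 50-base reads on a BGISEQ-500, per the labels' protocols. The deposited values are TPM, scaled by the authors to a fixed total per library; HISAT and Bowtie2 are named without versions in the submitters' processing notes, which also name GRCm38.p6, a mouse build, although the genes are human. Quantification tool, annotation and strand handling are not given in the sources used here.

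A mean of 1 TPM or more was required for testing. Values were log2(TPM + 1), and limma 3.58.1 under R 4.3.3 gave the tests (empirical Bayes with trend, two-sided, Benjamini-Hochberg over all 11927 genes, threshold 0.05); every adjusted p is from that fit. The code was tested on simulated data. Each fit was repeated under 15 alternatives, among them median-of-ratios scaling and quantile normalization, since a fixed total lets abundant genes lower all others. Members and gene lists were chosen with earlier results of these data known. Named genes were all members, up to 3 genes per list with the largest change among those that rose or fell under all 3 scalings and reached 5 TPM in a group, and the 3 genes nearest to the member with the largest change on the log2(TPM + 1) scale; other genes are said to be named after their values were seen, and 1 list gene is not reported here. Promoters came from RefSeq (GRCh38.p14) and overlaps from GENCODE v29. Protein comparisons planned for the family were not run.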

Additional observations from a re-analysis of the deposited data

How the results depend on the processing

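Of the 10 members, 6 (E2F2, E2F3, E2F5, E2F7, E2F8 and RBL2) kept direction and call in every alternative run that tested them; a minimum of 5 TPM left E2F2 out. Median-of-ratios scaling ended the call of E2F1 (-0.16) and turned E2F4 (0.21), RB1 (0.23) and RBL1 (0.0921); quantile normalization ended the call of E2F4 (-0.0501) and turned RB1 (0.0564) and RBL1 (0.0156). These scalings move the median tested gene by construction; the cause was not tested further. Median-of-ratios scaling gave 4 members higher and 4 lower, and 4532 genes higher and 4266 lower; quantile normalization gave 5 members lower, and 3749 genes higher and 4756 lower. G1/S targets called higher numbered 17 and 7 under these scalings, those called lower 27 after median-of-ratios scaling, and G2/M targets called higher 1 there and 1 with the 20 highest genes removed. Of 12 RB co-repressor genes, those called higher numbered 5 after median-of-ratios scaling, 4 after quantile normalization, 3 with the 20 highest genes removed, 2 without the trend and 1 to 3 with a library left out, and those called lower 4 after median-of-ratios scaling. Quantile normalization moved the differences in share, in percentage points of ES-Cu minus control, to -5.65 for E2F2, -4.80 for E2F5, -24.6 for E2F8, 2.47 for all activators, 6.83 for the atypical genes and -9.30 for the repressors.

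Pseudocounts of 0.1 and 0.5, no filter, no trend, removal of the 20 highest genes and leaving out any one library changed no call of a member. Equal replicate numbers did not mark pairs (r of deviations 0.0206, -0.0337 and 0.0107), and a replicate block gave 1614 genes higher and 8343 lower, with all 10 members called as before. Depth is unknown, so no detection limit can be given for E2F2, the scarcest member.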
